A study of Homo sapiens with 12 samples.

Results

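The replacement histone genes are the genes of histone variants whose messages are not confined to S phase and whose proteins can be put into chromatin without DNA replication. They were chosen by current gene symbol, matched to the Ensembl IDs of the count table, and all 8 genes sought were measured: H2AX, H2AZ1, H2AZ2, MACROH2A1, MACROH2A2, H3-3A, H3-3B and H1-10. They are 8 of 14698 genes in the table. T98-G cells, a human glioblastoma line, were exposed for 48 h to onametostat at 1 µM or, as the control, to 0.1% DMSO, each in normoxia (20% oxygen) or in hypoxia (1% oxygen). Onametostat blocks PRMT5, which methylates arginines of histones and splicing factors. Each of the 4 conditions had 3 libraries from separate experiments, 12 libraries in all, and the design asks what the inhibitor changes at each oxygen level and what oxygen changes with and without the inhibitor. All values are from 1 cell line grown in plates, and the measurements are of RNA, not of histone protein.

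Most histone protein is made in S phase from clustered genes whose messages end in a stem-loop in place of a poly(A) tail. Replacement histone genes lie apart from those clusters, most of them have introns, and their messages are polyadenylated, so that cells can exchange histones at any time of the cycle. H2A.Z, encoded by H2AZ1 and H2AZ2, sits around promoters and is put in by the SRCAP and TIP60 complexes. H3.3, encoded by H3-3A and H3-3B, is laid down by the HIRA complex at active genes and by DAXX and ATRX at telomeres and silent repeats, and mutations of H3-3A are known from childhood gliomas. H2A.X is the variant that ATM and related kinases phosphorylate beside DNA breaks. MacroH2A proteins carry a large macro domain and are known from silent chromatin, and H1-10 encodes the linker histone H1x.

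The H2AX message differs from those of the other members in that it can end in 2 ways, at a histone stem-loop or at a poly(A) tail farther on. The stem-loop is shown because H2AX shares it with the S phase histone genes. It was found in the canonical transcript by a search for a 6-base arm that starts with GG, a 4-base loop TTTN and the reverse complement of the arm, and capitals mark the paired arms.
H2AX stem-loop: GGCCCTtttaAGGGCC
It lies at chr11:119094898-119094913 on the minus strand of GRCh38, at base 553 of the 1592 bases of the transcript and 1024 bases before its end. Over all annotated transcripts of a gene, the same pattern was present in 14 of 16 (87.5%) measured replication-dependent histone genes, in 39 of 12184 (0.32%) protein-coding genes of the table and in 1 of 8 members. H2AX and H1-10 have 1 exon each, H2AZ1 and H2AZ2 have 5, H3-3A and H3-3B have 4 and both macroH2A genes have 9.

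The 250 bases before the start site are shown for H2AX, H2AZ2 and H3-3A, which were lower with onametostat at both oxygen levels, and for H2AZ1 and H3-3B, which code for the same proteins or nearly the same and were not. They were taken from RefSeq (GRCh38.p14) and read 5′ to 3′ on the strand of the gene. The windows are chr11:119095466-119095715, chr7:44848088-44848337, chr4:99950276-99950525 and chr17:75779780-75780029 on minus strands and chr1:226062466-226062715 on the plus strand. Capitals mark the CCAAT box, letters CCAAT on either strand, and the cell cycle element CHR, letters TTTGAA or TTCGAA on either strand.
H2AX: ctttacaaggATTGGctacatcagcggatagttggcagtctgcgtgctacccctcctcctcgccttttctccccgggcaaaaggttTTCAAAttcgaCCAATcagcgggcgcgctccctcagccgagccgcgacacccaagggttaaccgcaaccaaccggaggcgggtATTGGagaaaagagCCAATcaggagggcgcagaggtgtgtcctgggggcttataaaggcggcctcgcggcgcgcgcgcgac
H2AZ2: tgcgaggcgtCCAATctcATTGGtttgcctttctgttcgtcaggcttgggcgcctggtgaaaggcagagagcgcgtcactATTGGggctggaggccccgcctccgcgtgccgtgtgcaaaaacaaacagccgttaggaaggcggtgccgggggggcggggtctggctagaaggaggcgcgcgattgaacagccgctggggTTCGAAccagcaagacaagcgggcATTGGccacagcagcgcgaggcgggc
H2AZ1: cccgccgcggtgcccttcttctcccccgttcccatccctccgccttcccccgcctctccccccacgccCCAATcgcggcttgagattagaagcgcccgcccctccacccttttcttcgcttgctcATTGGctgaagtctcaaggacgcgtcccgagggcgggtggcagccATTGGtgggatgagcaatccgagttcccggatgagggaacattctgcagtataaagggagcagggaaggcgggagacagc
H3-3A: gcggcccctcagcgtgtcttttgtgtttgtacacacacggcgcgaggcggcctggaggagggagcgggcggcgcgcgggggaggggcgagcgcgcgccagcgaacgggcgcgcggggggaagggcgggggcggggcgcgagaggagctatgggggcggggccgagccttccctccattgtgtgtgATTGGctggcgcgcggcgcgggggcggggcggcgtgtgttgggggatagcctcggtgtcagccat
H3-3B: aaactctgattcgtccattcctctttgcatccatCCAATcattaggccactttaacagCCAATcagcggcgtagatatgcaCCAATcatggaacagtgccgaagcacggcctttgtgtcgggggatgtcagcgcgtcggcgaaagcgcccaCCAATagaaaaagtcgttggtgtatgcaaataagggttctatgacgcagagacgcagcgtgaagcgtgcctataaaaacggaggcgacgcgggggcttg
The CCAAT letters were present in 5 of 8 members, with 4 matches in H2AX, 4 in H2AZ2, 4 in H3-3B, 3 in H2AZ1 and 1 in H3-3A, and in 35.3% of the 10653 windows of the same length that matched a gene of the table. The CHR letters were present in H2AX and H2AZ2 alone among the members and in 9.65% of those windows. They start 164 bases before the start site of H2AX and 50 bases before that of H2AZ2, and overlap no CCAAT match. The CRE letters TGACGTCA and the E2F letters TTTCCCGC, TTTGGCGC, TTTCGCGC and TTTGCCGC were in none of the 8 windows and in 2.99% and 4.52% of all. These matches describe letters and are not measured binding sites.

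The libraries were not equal in counts. The table held 18154073 to 45977729 counts in 10 libraries, 7641280 counts in replicate 2 of onametostat in hypoxia and 403279 in replicate 3 of that condition, where 1 count is worth 2.69 CPM and 2978 genes were at 0. In the sequencing totals that the study lists, replicates 2 and 3 of that condition were also the lowest, but by a far smaller gap. The small totals here are thus of counted reads, and the step at which reads were lost was not tested. Replicate 3 also stood apart in its profile: chi-square per gene was 74.4 and 41.8 against replicates 1 and 2, beside 1.91 to 8.27 for all other pairs of replicates. CPM is the count scaled by the TMM-adjusted library size. Results that use onametostat in hypoxia are therefore given with and without replicate 3 where that changes a call. PRMT5, the target of the inhibitor, is not deleted by it, and its own message was at 65.2 CPM with DMSO and 87.5 CPM with onametostat in normoxia (log2 fold change 0.43, adjusted p = 4.41e-08). Of 19 measured genes of a list of HIF targets, hypoxia raised 7 and lowered 2 under DMSO, and raised 0 and lowered 6 under onametostat. The shares of all genes were 14.1% raised and 13.9% lowered under DMSO, and 7.69% and 6.16% under onametostat. Of 8 markers of glioma lines 4 were measured, and their summed level was 2908 to 3596 CPM. The markers NES, CHI3L1, GFAP and SOX2 were not among the measured genes. Of 12 markers of blood, endothelial, epithelial and neural cells only VWF was measured, at 0.627 to 2.69 CPM.

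Levels were compared between genes per kilobase of the canonical transcript. In DMSO in normoxia, H2AZ1 stood highest at 572 ± 16.2 CPM per kb (SD, n = 3), followed by H3-3B at 169 ± 4.41, MACROH2A1 at 133 ± 2.82, H2AZ2 at 94.6 ± 0.364, H2AX at 64.3 ± 2.45, H1-10 at 30.7 ± 2.24, H3-3A at 22.0 ± 1.32 and MACROH2A2 at 0.208 ± 0.0549. No neighbours in that order overlapped, but the place of H3-3A is uncertain because most of its sequence is not unique. In DMSO in hypoxia the ranges of H3-3B and MACROH2A1 overlapped (146 ± 7.10 and 140 ± 3.67 CPM per kb). With onametostat H2AX came down to the level of H1-10: the values were 32.6 ± 1.70 and 28.4 ± 2.52 CPM per kb in normoxia and 31.7 ± 4.22 and 35.1 ± 3.41 in hypoxia, with overlapping libraries in both. The order depends on the length used. Over all annotated exons H2AX, at 64.3 CPM per kb in DMSO in normoxia, was above H2AZ2 at 40.9 and MACROH2A1 at 14.96.

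**Figure D1:**
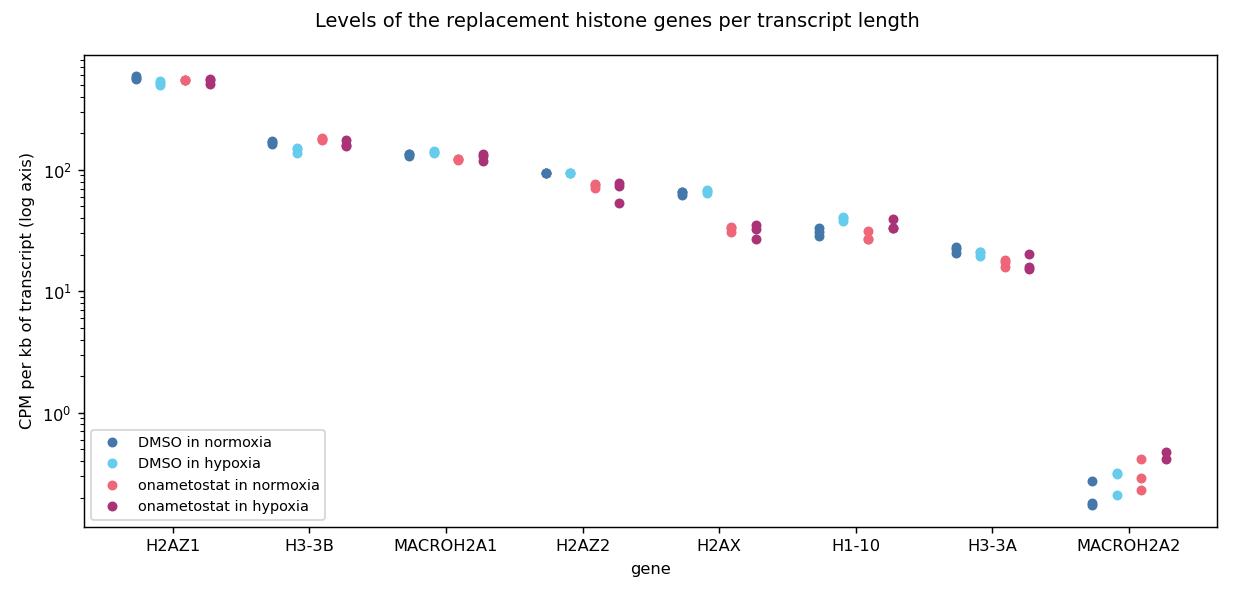
CPM per kb of canonical transcript (log axis) for the 8 replacement histone genes, ordered by mean level, with 1 point per library and a colour per condition. H2AZ1 is highest at 572 CPM per kb in DMSO in normoxia, MACROH2A2 is lowest at 0.208, and the H2AX points of both onametostat conditions sit at the level of H1-10. MACROH2A2 had 0 counts in replicate 3 of onametostat in hypoxia, which a log axis cannot show.

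The level of H3-3A needs care. Of the 50-base stretches of its canonical transcript, 94.0% also occur elsewhere in the genome, against 12.7% for H3-3B, 13.3% for H2AZ1, 11.0% for H2AZ2, 0.324% for H2AX and 0.0% for H1-10, MACROH2A1 and MACROH2A2. The methods name featureCounts with default settings, which leaves out reads that map to several places. The counts of H3-3A are then those of the small unique share of its message, so its level, its place among the members and its share of H3.3 reads are uncertain, while its change between conditions compares the same stretch. Exons shared with antisense genes are a second limit, since counting was unstranded by default and cannot tell the strands apart there. How reads in the shared bases were assigned was not tested. H1-10 shares 345 exon bases with H1-10-AS1, MACROH2A1 4706 with PITX1-AS1, MACROH2A2 986 with AIFM2 and H3-3B 179 with UNK, each on the opposite strand.

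With onametostat in normoxia, 4 of 8 members were lower at an adjusted p under 0.05 in edgeR's quasi-likelihood test and 0 were higher. Over all genes 29.3% were lower and 27.2% were higher. H2AX fell by 49.3%, and H2AZ2, H3-3A and MACROH2A1 fell by 21.9%, 22.5% and 7.87%. No member was a DEG, which needs an absolute log2 fold change above 1 as well (6.11% of all genes). The groups did not overlap for 6 of 8 members, against 64.4% of all genes. The median log2 fold change was −0.11 over the members and −0.01 over all genes.

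In hypoxia 4 members were again lower with onametostat and 1 was higher. Over all genes 26.4% were lower and 25.6% were higher. With library sizes alone in place of TMM, 4612 genes were lower and 2873 higher (3884 and 3761 with TMM), and 5 members were lower and 0 higher. H2AX fell by 48.5%, H3-3A by 24.2%, H2AZ2 by 23.8% and H1-10 by 15.9%, and H3-3B rose by 11.7%. Again no member was a DEG (7.51% of all genes), and the groups did not overlap for 4 of 8 (48.4% of all genes). The median log2 fold change was −0.18 over the members, beside −0.01 over all genes. Without replicate 3 of onametostat in hypoxia the count of called members stayed at 5, and without replicates 2 and 3 of that condition, which leaves a lone library assumed to vary like the other groups, it was 4 lower and 0 higher.

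**Figure D2:**
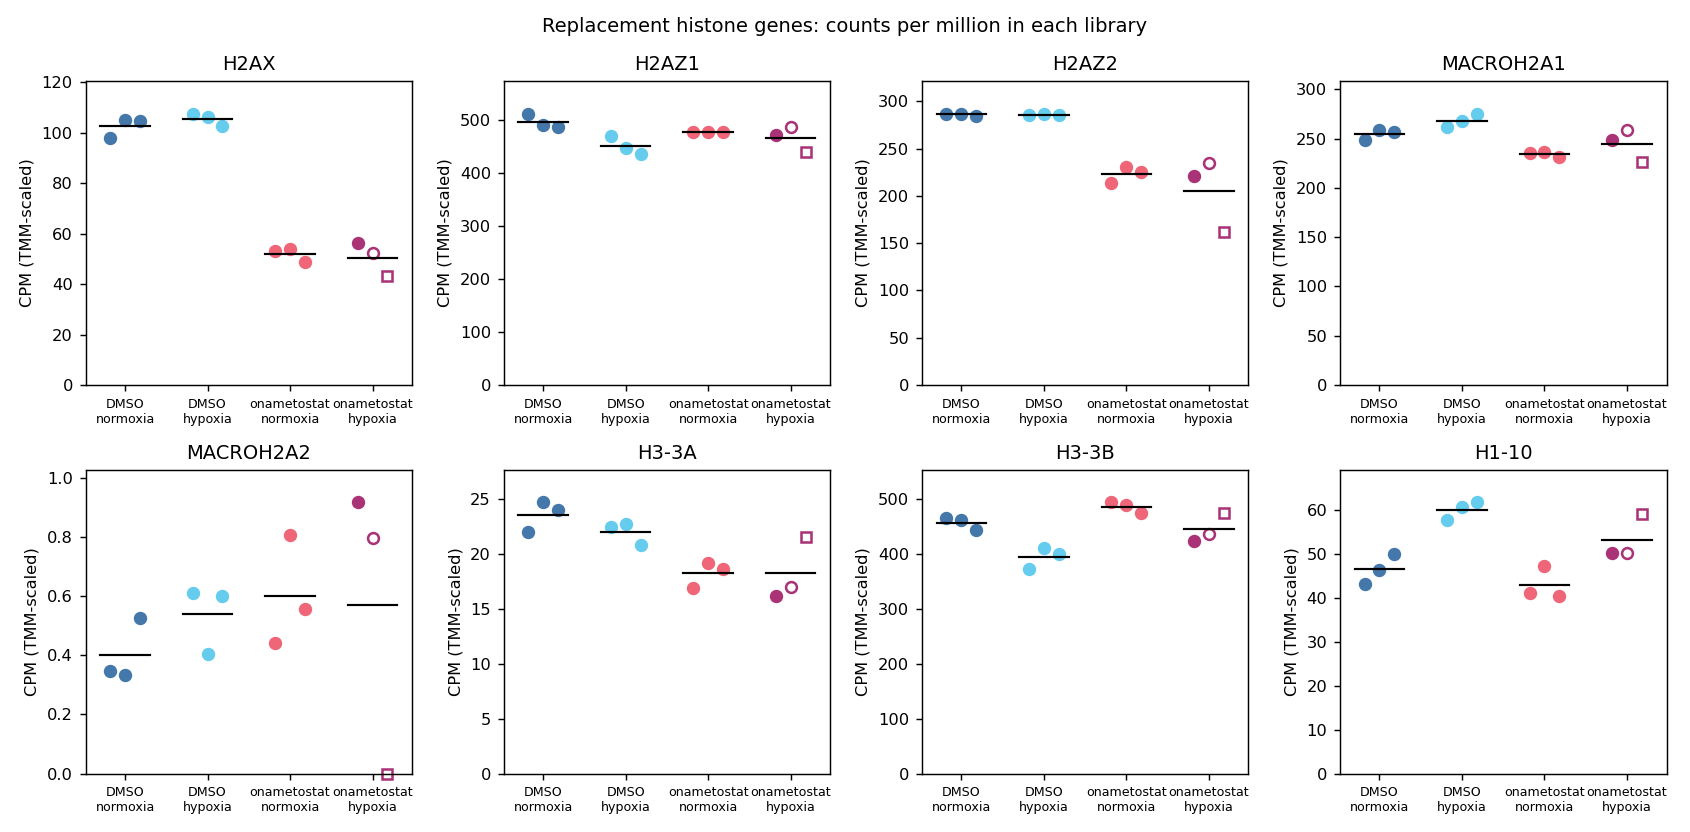
CPM (TMM-scaled counts, axis from 0) of each replacement histone gene in each of the 12 libraries, with a panel per gene, points for replicates 1 to 3 from left to right and a line at the mean of each condition. Open symbols are the low-count libraries of onametostat in hypoxia (circle, replicate 2; square, replicate 3). The H2AX values with onametostat (43.1 to 56.1 CPM) lie below all values with DMSO (97.9 to 108 CPM).

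H2AX, on chromosome 11 (119093874 to 119095465), had the largest fold change of the 8 genes with onametostat at either oxygen level. In DMSO in normoxia its replicates were at 97.9, 105 and 104 CPM, and with onametostat at 53.0, 53.8 and 48.8 CPM. In DMSO in hypoxia they were at 108, 106 and 102 CPM, and with onametostat at 56.1, 52.2 and 43.1 CPM. All 6 libraries with the inhibitor were below all 6 with DMSO, at either oxygen level. The log2 fold change was −0.98 (SE 0.04, adjusted p = 2.23e-11) in normoxia and −0.96 (SE 0.05, adjusted p = 4.04e-10) in hypoxia, and −0.94 (adjusted p = 1.85e-11) in hypoxia without replicate 3, whose value rests on 16 reads (43.1 CPM, 95% exact Poisson interval 24.6 to 69.9, which covers counting error only). The 2 effects differed by 0.02 on the log2 scale (95% interval −0.12 to 0.17, adjusted p = 0.948 for the interaction). Oxygen itself left H2AX without a call: the log2 fold change from normoxia to hypoxia was 0.04 (95% interval −0.05 to 0.13) with DMSO and 0.06 (−0.05 to 0.18) with onametostat. In bulk RNA, fewer cells that express a gene and less of its message per cell cannot be told apart. The library kit captures poly(A) tails, so the H2AX values are of its tailed form. Whether the use of its 2 ends changed was not tested.

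Most genes of S phase were also lower with onametostat. For this and the later gene lists, the shares of all genes with onametostat in normoxia were 27.2% higher and 29.3% lower. In hypoxia they were 25.6% and 26.4%. Of 20 S phase genes measured, 15 were lower and 1 higher with onametostat in normoxia and 14 were lower and 3 higher in hypoxia (14 lower and 1 higher without both low-count libraries), with RRM2, a subunit of ribonucleotide reductase, at log2 fold changes of −1.33 and −1.08. Their summed level was 3866 to 3894 CPM in DMSO in normoxia and 2972 to 3057 CPM with onametostat, and 3508 to 3533 and 2801 to 3072 CPM in hypoxia. In hypoxia with DMSO, 11 of these 20 genes were lower and 0 higher than in normoxia, while H2AX was not called. The part of the S phase share of cells in the fall of H2AX was not tested. Of 15 genes of G2 and mitosis, 9 were higher and 3 lower with onametostat at each oxygen level, among them AURKA, a mitotic kinase (log2 fold change 0.55 in normoxia and 0.61 in hypoxia).

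Among 15 genes that phosphorylate, read or reset H2A.X, 4 were higher and 6 lower with onametostat in normoxia and 4 higher and 5 lower in hypoxia. The kinases ATM, ATR and PRKDC were all lower: ATM by −0.72 and −0.85, ATR by −0.37 and −0.32 and PRKDC by −0.26 and −0.23 on the log2 scale in normoxia and hypoxia. Among the readers, MDC1 and RNF8 were higher. MDC1, which binds phosphorylated H2A.X, rose by 0.71 and 0.91, and RNF8, the ubiquitin ligase that MDC1 recruits, rose by 0.56 and 0.47. TP53BP1 was at −0.04 and −0.01 and was not called.

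H2AZ1 and H2AZ2 code for nearly identical H2A.Z proteins from chromosome 4 (99948086 to 99950355) and chromosome 7 (44826791 to 44848087). H2AZ2 was at 287, 287 and 285 CPM in DMSO in normoxia and at 214, 231 and 226 CPM with onametostat, and at 285, 287 and 286 CPM in DMSO in hypoxia and 221, 235 and 161 CPM with onametostat. The 6 DMSO libraries lay between 285 and 287 CPM, and every onametostat library was lower. The log2 fold change was −0.36 (SE 0.06, adjusted p = 1.31e-04) in normoxia and −0.39 (SE 0.07, adjusted p = 1.2e-04) in hypoxia. Without the low-count replicate 3 the fall in hypoxia was −0.33 (SE 0.04, adjusted p = 9.14e-07).

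H2AZ1 was at 511, 489 and 485 CPM in DMSO in normoxia and at 477, 478 and 476 CPM with onametostat. In hypoxia it was at 470, 447 and 435 CPM with DMSO and at 472, 486 and 439 CPM with onametostat. The treatment was not called for it at either oxygen level, with log2 fold changes of −0.05 (95% interval −0.15 to 0.04) and 0.06 (−0.04 to 0.16). With DMSO it fell by 9.04% in hypoxia (log2 fold change −0.14, adjusted p = 0.0297), a call that was lost in 4 of the 12 fits that left out 1 library (DMSO in normoxia replicate 1 or 2, DMSO in hypoxia replicate 2 or 3). The reads of H2AZ1 and H2AZ2 together came to 782 ± 14.9 CPM in DMSO in normoxia and 701 ± 8.56 CPM with onametostat (SD, n = 3), and the share from H2AZ2 went from 36.0% to 37.0% of them to 31.0% to 32.6%.

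The ratio of the paralogues within a library is free of library scaling. The log2 ratio of H2AZ1 to H2AZ2 counts was 0.83, 0.77 and 0.77 in DMSO in normoxia and 1.16, 1.05 and 1.08 with onametostat. In hypoxia it was 0.72, 0.64 and 0.61 with DMSO and 1.10, 1.05 and 1.43 with onametostat. All 6 onametostat values were above all 6 DMSO values. The means differed by 0.30 in normoxia and 0.54 in hypoxia, with an exact two-sided permutation p of 0.1 in each case, which is the smallest that 3 against 3 libraries can give (0.2 after adjustment over 12 ratio tests). The mean of onametostat in hypoxia was 1.19 with and 1.07 without replicate 3.

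**Figure D3:**
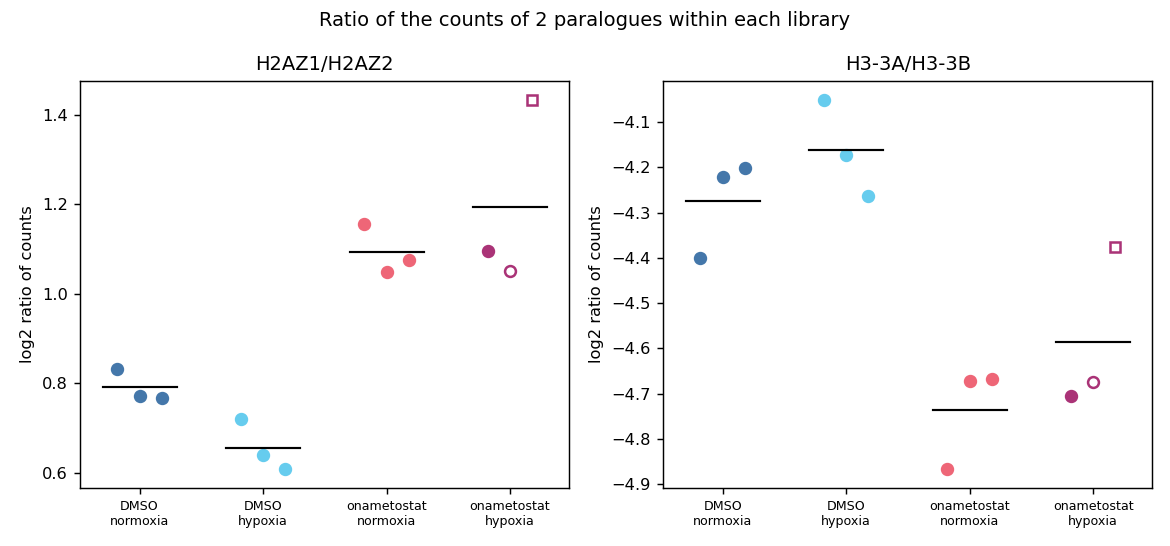
The log2 ratio of counts of H2AZ1 to H2AZ2 (left) and of H3-3A to H3-3B (right) in each library (points, replicates 1 to 3 from left to right; lines, means of the conditions; open symbols, low-count libraries of onametostat in hypoxia). The axes do not start at 0. The means of the left panel go from 0.79 to 1.09 in normoxia with onametostat and those of the right panel from −4.28 to −4.74.

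H3-3A, on chromosome 1 (226061851 to 226072019), was at 22.0, 24.7 and 24.0 CPM in DMSO in normoxia and at 16.9, 19.2 and 18.6 CPM with onametostat. In hypoxia it was at 22.5, 22.7 and 20.8 CPM with DMSO and at 16.2, 17 and 21.5 CPM with onametostat. The groups were separate in normoxia and overlapped in hypoxia, where replicate 3 rests on 8 reads (9.29 to 42.4 CPM by the exact Poisson interval). The log2 fold change was −0.37 (SE 0.07, adjusted p = 3.11e-04) and −0.40 (SE 0.09, adjusted p = 0.00107), and −0.41 (adjusted p = 4.27e-04) in hypoxia without that library. Oxygen was not called (−0.11, 95% interval −0.25 to 0.04, with DMSO).

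H3-3B codes for the same H3.3 protein from chromosome 17 (75776434 to 75785893) and gave 94.3% to 96.7% of the counted H3.3 reads of a library, a share of counts that the unread part of H3-3A can raise. It was at 465, 461 and 442 CPM in DMSO in normoxia and at 493, 489 and 473 CPM with onametostat. In hypoxia it was at 372, 410 and 399 CPM with DMSO and at 423, 436 and 474 CPM with onametostat. Values with onametostat were above those with DMSO at each oxygen level, and values in hypoxia with DMSO were the lowest. The effect of the inhibitor was 0.09 (95% interval −0.01 to 0.19, adjusted p = 0.123) in normoxia and 0.16 (SE 0.05, adjusted p = 0.0128) in hypoxia. The effect in hypoxia was called in 18 of 20 alternatives. It was not called with library sizes alone in place of TMM (0.08, adjusted p = 0.215), and was 0.10 without both low-count libraries. With DMSO it fell by 13.7% in hypoxia (log2 fold change −0.21, adjusted p = 0.00312). With onametostat the fall of −0.14 was not called (adjusted p = 0.0691), but it was −0.18 (adjusted p = 0.00802) without replicate 3.

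The H3-3A to H3-3B log2 ratio was −4.28 ± 0.11 (SD, n = 3) in DMSO in normoxia and −4.74 ± 0.11 with onametostat, and −4.16 ± 0.11 and −4.59 ± 0.18 in hypoxia. The onametostat values were all below the DMSO values of the same oxygen level (exact permutation p = 0.1, the smallest possible, adjusted p = 0.2 in both). Summed H3.3 reads were 480 ± 11.4 CPM in DMSO in normoxia, 503 ± 9.82 with onametostat, and 416 ± 19.1 and 463 ± 28.9 CPM in hypoxia. The antisense neighbour UNK of H3-3B went down with onametostat (log2 fold change −0.37, adjusted p = 2.05e-04, in normoxia), unlike H3-3B.

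MACROH2A1, on chromosome 5 (135334381 to 135399914), moved little. It was at 248, 259 and 256.4 CPM in DMSO in normoxia and at 236, 237 and 231 CPM with onametostat, and at 261, 268 and 275 CPM in DMSO in hypoxia and 248, 259 and 226 CPM with onametostat. The groups did not overlap at either oxygen level. The log2 fold change was −0.12 (SE 0.04, adjusted p = 0.025) in normoxia, a call that was lost in 4 of 12 fits that left out 1 library (DMSO in normoxia replicate 2 or 3, onametostat in normoxia replicate 1 or 3), and −0.11 (95% interval −0.20 to −0.01, adjusted p = 0.0586) in hypoxia. PITX1-AS1, which shares exon bases with it, was at 8.56 CPM in DMSO in normoxia and was lower with onametostat there (log2 fold change −0.34, adjusted p = 0.00554).

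MACROH2A2, on chromosome 10 (70052544 to 70112282), was close to the limit of these libraries. It had 8, 14 and 12 counts in DMSO in normoxia, 14, 19 and 28 in DMSO in hypoxia, 8, 34 and 12 with onametostat in normoxia and 19, 6 and 0 with onametostat in hypoxia, where 0 counts allow up to 3 counts, or 8.07 CPM. Its log2 fold changes with onametostat were 0.73 (95% interval 0.06 to 1.398, adjusted p = 0.0587) and 0.72 (−0.04 to 1.48, adjusted p = 0.104), and neither was called. The value in normoxia ran from 0.37 without replicate 2 of onametostat in normoxia to 0.93 without replicate 3 of DMSO in normoxia, and it was called in 2 of 12 fits that left out 1 library (the latter and the fit without replicate 1 of onametostat in normoxia, 0.87). The log2 ratio of MACROH2A1 to MACROH2A2 was 9.27 ± 0.35 (SD, n = 3) in DMSO in normoxia and 8.60 ± 0.40 with onametostat (exact permutation p = 0.2, adjusted p = 0.267). In hypoxia it was 8.95 ± 0.34 with DMSO and 7.89 ± 0.43 with onametostat, or 8.14 without replicate 3 (exact permutation p = 0.1, adjusted p = 0.2).

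H1-10, on chromosome 3 (129314771 to 129316286), was the member that hypoxia raised. It was at 43.2, 46.4 and 49.97 CPM in normoxia and at 57.8, 60.7 and 61.7 CPM in hypoxia with DMSO. With onametostat it was at 41.2, 47.4 and 40.4 CPM in normoxia and at 50.3, 50.2 and 59.2 CPM in hypoxia. The oxygen groups did not overlap under either treatment. The log2 fold change with hypoxia was 0.37 (SE 0.06, adjusted p = 2.77e-04) with DMSO and 0.23 (SE 0.07, adjusted p = 0.0498) with onametostat. The second call lay at the threshold: it was lost in 9 of 12 fits that left out 1 library, and without the low-count replicate 3 it was 0.21 (adjusted p = 0.0638). Onametostat lowered H1-10 in hypoxia (log2 fold change −0.25, adjusted p = 0.00796), with overlapping libraries and a call lost without replicate 1 of onametostat in hypoxia (−0.24, adjusted p = 0.072), and was not called in normoxia (−0.11, 95% interval −0.24 to 0.03). H1-10-AS1, its antisense partner, was at 1.67 CPM in DMSO in normoxia and lower with onametostat (log2 fold change −0.65, adjusted p = 0.00763).

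Counted over the 8 members, hypoxia with DMSO lowered 2 (H2AZ1 and H3-3B) and raised 1 (H1-10), where 13.9% of all genes were lower and 14.1% higher. With onametostat 1 was higher (7.69% of all genes) and 0 lower (6.16%); at an unadjusted p under 0.05 H3-3B was lower too, and DESeq2 called H3-3B lower in place of H1-10. No member was a DEG (0.83% and 0.728% of all genes), and the groups did not overlap for 4 of 8 with DMSO and 1 of 8 with onametostat (45.3% and 26.5% of all genes). The interaction of treatment and oxygenation called 0 members in edgeR, DESeq2 and limma voom, where 0.497% of all genes were called in edgeR, and 0 members had an unadjusted p under 0.05. The interaction of H2AZ1 was the largest beside its error (0.11, 95% interval −0.02 to 0.25, adjusted p = 0.473). The comparisons share libraries with each other, so their values stand side by side and were not correlated.

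**Figure D4:**
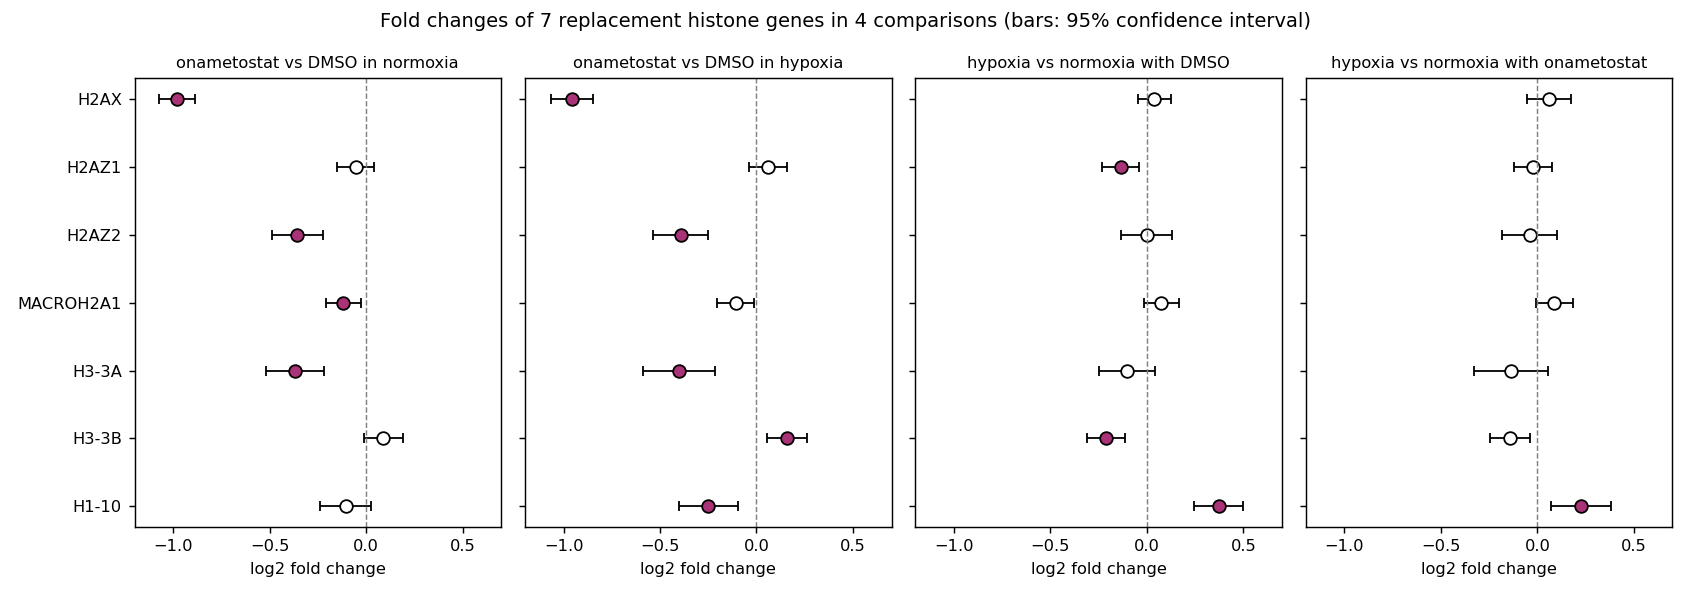
Log2 fold changes of 7 replacement histone genes (points) with 95% confidence intervals (bars) in the 4 comparisons, filled where the adjusted p of edgeR's quasi-likelihood test was under 0.05. MACROH2A2 is left out because its counts were too low for a narrow interval. H2AX stands at −0.98 and −0.96 in the panels for onametostat and at 0.04 and 0.06 in those for oxygen.

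No H3.3 chaperone gene was lower with the inhibitor. Of 9 H3.3 chaperone genes, 6 were higher and 0 lower in normoxia and 8 higher and 0 lower in hypoxia (7 higher without both low-count libraries). DAXX rose by 0.48 and 0.45 on the log2 scale, CHD2, a remodeller that works with H3.3, by 0.50 and 0.35 and UBN1, of the HIRA complex, by 0.29 and 0.35. The median of the 9 was 0.16 in normoxia and 0.32 in hypoxia. With hypoxia, ATRX rose by 0.40 with DMSO and 0.39 with onametostat.

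Of 20 genes of the complexes that exchange H2A.Z, 7 were higher and 2 lower with onametostat in normoxia and 8 higher and 2 lower in hypoxia, with medians of 0.08 and 0.14, or 9 higher and 1 lower in hypoxia without replicate 3 of onametostat in hypoxia. Beside these counts, 27.2% of all genes were higher and 29.3% lower in normoxia, and 25.6% and 26.4% in hypoxia. ACTR6, a subunit of the SRCAP complex, rose most (0.53 and 0.59). ANP32E, the chaperone that takes H2A.Z out of nucleosomes, fell by 0.28 in normoxia and 0.13 in hypoxia, and INO80 rose by 0.30 and 0.36. SRCAP itself was at 0.02 and 0.14 and was not called.

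Chaperones that act at the replication fork or on histones in general were mixed. Of 13, 3 were higher and 4 lower in normoxia and 4 higher and 1 lower in hypoxia. ASF1B, the ASF1 form of dividing cells, fell by 0.78 and 0.64, and its paralogue ASF1A, which also serves H3.3, was at −0.02 in normoxia and rose by 0.20 in hypoxia. CHAF1A, the large subunit of CAF-1, fell by 0.25 in normoxia and was at 0.02 in hypoxia. TONSL, which reads new histones behind the fork, rose by 0.32 and 0.61.

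Of a list of 67 replication-dependent histone genes, 16 were measured, and 9 were higher and 0 lower with onametostat in normoxia and 7 higher and 0 lower in hypoxia, or 7 higher and 1 lower in hypoxia without both low-count libraries. Their summed level was 31.8 to 32.4 CPM in DMSO in normoxia and 74.0 to 77.0 CPM with onametostat, and 43.1 to 54.3 and 93.1 to 102 CPM in hypoxia. H2BC21 and H2BC12 rose by 2.703 and 2.18 in normoxia and by 1.93 and 2.03 in hypoxia, and H1-2 by 1.21 and 0.92. The library kit captures poly(A) tails, so these values are of tailed transcripts and not of the whole histone message. Of these 16 genes, 14 carry the stem-loop that H2AX also carries, and the counts of higher and lower genes are over all 16. Whether the stem-loop had a part in any of these changes was not tested. The study reports the opposite direction, a histone cluster lowered by onametostat in normoxia and in hypoxia. Why the directions differ was not tested.

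Of 11 genes that make the stem-loop end, 5 were higher and 2 lower with onametostat in normoxia and 4 higher and 0 lower in hypoxia. SLBP, which binds the stem-loop, was not called (−0.10 and −0.03). ERI1, the exonuclease that trims it, rose by 0.41 and 0.46, SYMPK by 0.38 and 0.33 and LSM11, of the U7 particle, by 0.38 and 0.46. NPAT, the activator of the histone clusters, fell by 0.20 in normoxia. CENPA, the centromeric H3, was at −0.02 and 0.09 with onametostat and was not called.

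**Figure D5:**
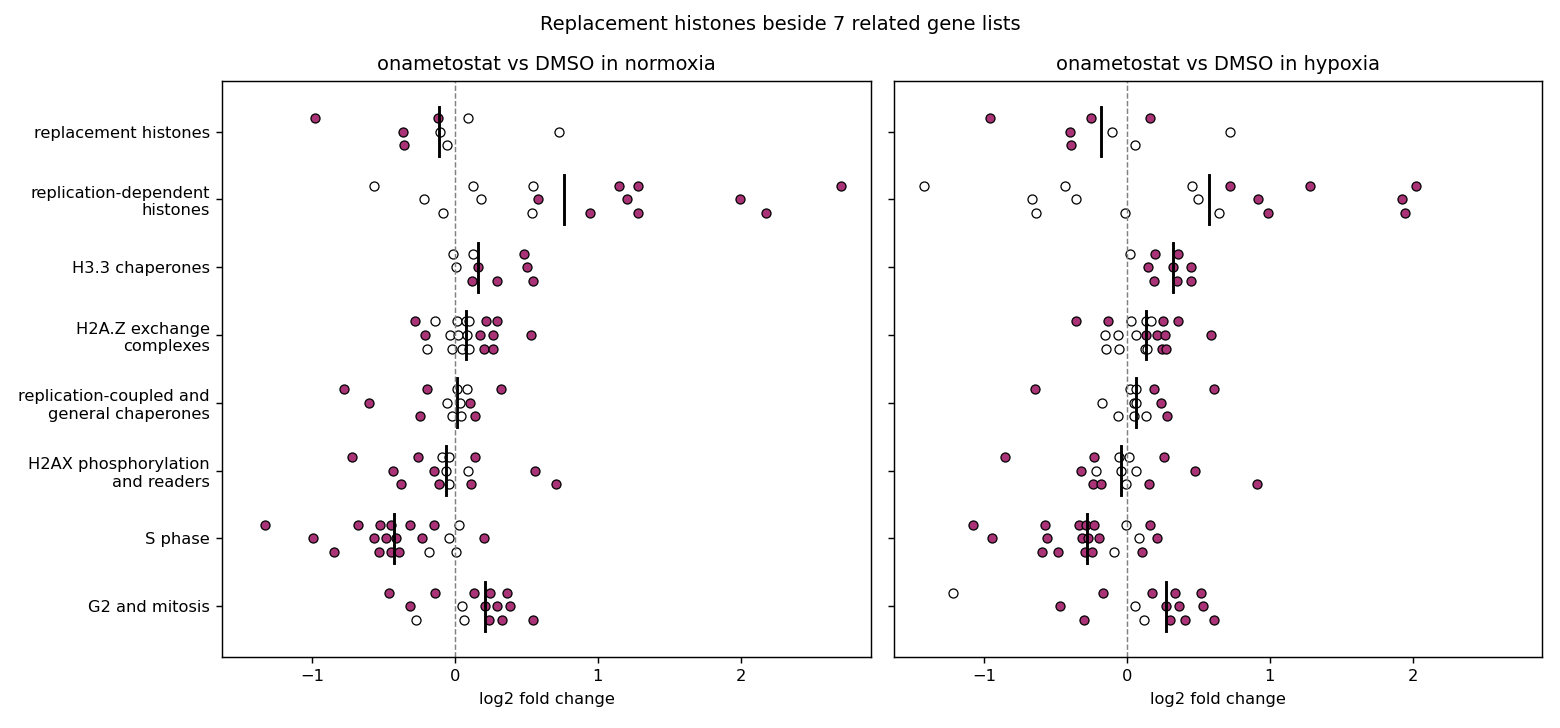
Log2 fold changes with onametostat in normoxia (left) and hypoxia (right) for the 8 replacement histone genes and 7 related lists (1 point per gene, filled where the adjusted p was under 0.05; vertical bars, medians). The S phase medians are −0.43 and −0.28 and those of the replication-dependent histones 0.76 and 0.57, beside −0.11 and −0.18 for the replacement histones.

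The genes whose profile over 11 libraries (all but replicate 3 of onametostat in hypoxia) came nearest to each member were found by the root mean square distance of centred log2 CPM among 11767 genes. ZDHHC16 and REX1BD were nearest to H2AX (distances 0.06 and 0.06, beside a spread of 0.49 of H2AX itself), and ARF6 and VEGFB to H2AZ2 (0.03 and 0.03, beside 0.17). ZDHHC16, a palmitoyltransferase, had log2 fold changes of −0.89 and −0.96 with onametostat in normoxia and hypoxia. The study's pathway lists place ZDHHC16 among genes that onametostat raised in hypoxia, the opposite direction, and why was not tested. STMP1 and IBA57 were nearest to H3-3A, FHL2 and ACTG1 to H3-3B, LRP10 and SELENON to H1-10, NUP58 and SYNCRIP to H2AZ1 and LIMK1 and AP1B1 to MACROH2A1. LRP10 rose by 0.40 with hypoxia in DMSO, beside 0.37 for H1-10, and ACTG1, a cytoplasmic actin, fell by 0.24, beside 0.21 for H3-3B.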

How the data were processed

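RNA was measured in 12 libraries of T98-G cells, prepared with a stranded poly(A) kit. Per the methods, the authors used fastp for trimming, STAR for alignment and featureCounts with default options for gene counts, followed by filterByExpr. The deposited values are whole-number counts, not scaled by the authors although the table is called normalized. The methods name GRCh38 and the submitters' processing notes STAR 2.7.10a and GRCh37. Coordinates here are those of GENCODE 44 on GRCh38 and serve only to place genes.

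From the counts, differences between conditions were tested with edgeR 4.0.16 under R 4.3.3 (TMM, quasi-likelihood test, 1 fit of 12 libraries, 14698 genes, Benjamini-Hochberg adjustment, calls at 0.05). Groups were those of the labels, and p-values measure the spread between experiments in 1 line. Replicates were compared for duplicates: chi-square per gene was 1.91 to 8.27, and 41.8 and 74.4 for the pairs with replicate 3 of onametostat in hypoxia, so no pair was counted as the same library. Paralogue ratios used a pseudocount of 0.5 and exact permutation tests. Alternatives were DESeq2 1.42.0, limma voom (limma 3.58.1), other scalings, a filter, a replicate block and fits without single libraries. The fits were tested on simulated counts. Figures were drawn with matplotlib 3.10.9. Genes named were the 8 members, and in each list up to 3 genes per comparison with the largest fold change among those called with separate groups and an average log2 CPM of at least 1, the HIF and PRMT5 lists, and the 2 nearest profiles of each called member. ATR, TP53BP1, SRCAP, NPAT and CENPA were named outside that rule for their roles, after their values were seen, and VWF as a marker. The members and lists were chosen with earlier results of these data known. No table column was left unused.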

Additional observations from a re-analysis of the deposited data

Results flagged for a closer look

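The 2 results here are of genes in the list of HIF targets, outside the histones, and both were picked because the effect of onametostat differed between oxygen levels in the interaction test of edgeR. NDRG1, a stress-response gene, had an effect of onametostat in hypoxia minus normoxia of −0.713 on the log2 scale (SE 0.08, adjusted p = 0.00141). PPP1R3C, a glycogen-targeting subunit of a phosphatase, had a difference of −1.03 (SE 0.18, adjusted p = 0.026). Calls of the interaction depended on single libraries. The fit of all libraries called 33 genes higher and 40 lower. Without replicate 1 of DMSO in normoxia the calls were 0 and 1, and without replicate 3 of onametostat in hypoxia 97 and 86. At most 1 of NDRG1 and PPP1R3C can thus have kept its call without replicate 1 of DMSO in normoxia. Their own values in such fits were not looked up.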

How the results depend on the processing

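Of 784 fold changes of members under the alternatives, 734 kept their side of the threshold and their direction where called, 28 lost the call, 22 gained it and 0 reversed. The fall of H2AX, H2AZ2 and H3-3A with onametostat was called in all 20 alternatives at both oxygen levels, with log2 values of −1.01 to −0.94, −0.39 to −0.32 and −0.41 to −0.32 in normoxia and −1.03 to −0.91, −0.47 to −0.33 and −0.46 to −0.34 in hypoxia. For onametostat in hypoxia, limma voom with sample quality weights called 8 members in place of 5. Over all 14698 genes it called 3820 higher and 3510 lower, against 3761 and 3884 in the main fit. For hypoxia with onametostat, 0 members in place of 1 were called with RLE size factors, with genes under 1 in average log2 CPM left out and with only the groups compared. In the fits that left out 1 library, 0 to 1 were called. Over all genes, RLE size factors called 1040 higher and 988 lower, against 1130 and 906 in the main fit. The filter called 1103 and 1005 of 11771, and the fit of only the groups compared 628 and 578. The cause of the changed calls was not tested. The replicate block, with the experiment number in the design, called 4 and 5 members with onametostat in normoxia and hypoxia, 3 and 1 for hypoxia with DMSO and onametostat and 0 for the interaction, the counts of the fit without it. Only 1 of 18 pairs of libraries with the same number had a correlation of deviations above 0.1 (range −0.147 to 0.115), and 4 of 12 libraries correlated best with their own number, so the numbers were not taken to pair libraries. With library sizes alone the interaction called 7 genes higher and 42 lower, against 33 and 40 with TMM. Without both low-count libraries, replicates 2 and 3 of onametostat in hypoxia, the rise of H3-3B with onametostat in hypoxia and that of H1-10 with hypoxia under onametostat were not called, and the fall of H3-3B with hypoxia under onametostat was.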
